A study of Homo sapiens with 2 samples.

Results

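The DEAD and DEAH box RNA helicases were taken as every gene of the table whose symbol begins with DDX or DHX and a digit. DDX58 and readthrough genes with a hyphenated symbol were left out. This gave 49 of the 12918 genes, 33 of the DDX and 16 of the DHX kind. All 49 reached 1 FPKM in at least 1 library, as did 11046 genes in all; FPKM counts fragments per kilobase of a transcript relative to the size of the library. The reference annotation holds 54 coding genes under the same rule, and DDX3Y, DDX4, DDX25, DDX43 and DDX53 were not analysed here.

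These enzymes bind and hydrolyse ATP to open short RNA duplexes or to strip proteins from RNA. DEAD box members act locally and without a fixed direction, whereas many DEAH box members pull along a single strand. Both kinds share a core of paired RecA-like domains and are named after motif II, the acidic stretch that holds the magnesium ion of the bound ATP. Members serve almost every step in the life of an RNA: ribosome assembly, splicing, export, translation, decay and the sensing of viral RNA.

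Total RNA came from MDA-MB-231, an established line of human triple-negative breast cancer cells with epithelioid morphology per the labels, grown in L15 medium with 10% FBS. One library was made from cells transfected with si-NC, the negative control. The other was made from cells transfected with the Smart Silencer against THAP7-AS1, a long noncoding RNA; such a reagent combines siRNAs with antisense oligonucleotides. Harvest was at 48 h. The table has a column named for si-NC, called the control here, and a column named si-v. The si-v column was given to the silencer group because only that group remained, and the meaning of v is not stated, so every direction below depends on that assignment. The level of THAP7-AS1 was not analysed here, and the silencing was therefore not checked. With 1 library per group there is no replicate, no spread between cultures and no test, and all statements describe these 2 libraries. In bulk RNA, fewer cells of a kind and less RNA per cell cannot be told apart.

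About 7830000 fragments fell on listed transcripts in the control and 8320000 in si-v. The share of summed FPKM that came from the mitochondrial genome was 12% in the control but 6.95% in si-v. Ratios scaled without the mitochondrial genome are described in the closing section. The cause of the difference in share was not tested. The mesenchymal markers VIM (344 FPKM in the control, 373 in si-v), CD44 (152 and 114) and AXL (259 and 204) were abundant. The estrogen receptor gene ESR1 was listed at 0 in both libraries and CDH1 at 0.0845 and 0.122. ERBB2 stood at 4.65 and 17.5, and PGR was not analysed here.

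The sequence that names the family shows how the members differ. The coding stretch around motif II was placed in 43 of the 49 genes, as the first fitting run of codons 50 to 160 codons past motif I, the ATP-binding Walker A motif. In 23 genes the codons spelled the DEAD form and in 8 the DEAH form. A variant form stood in 12 genes, 5 DDX and 7 DHX. It was not placed in DDX1, DDX11, DDX24, DDX60, DDX60L and DHX32. The lines below give 60 bases of coding sequence from GENCODE release 29, 5′ to 3′ on the coding strand, with the motif II codons in capitals. They are shown to set the DEAD form (DDX5, DDX47, DDX3X, DDX19A), the DEAH form (DHX15, DHX35, DHX37) and variants (DDX21, DDX39B, DHX58) side by side.
DDX5 (chromosome 17, minus strand): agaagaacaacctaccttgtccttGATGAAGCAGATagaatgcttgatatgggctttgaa
DDX47 (chromosome 12, plus strand): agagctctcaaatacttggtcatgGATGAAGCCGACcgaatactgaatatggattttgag
DDX3X (chromosome X, plus strand): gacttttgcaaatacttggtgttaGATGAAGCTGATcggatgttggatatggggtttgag
DDX19A (chromosome 16, plus strand): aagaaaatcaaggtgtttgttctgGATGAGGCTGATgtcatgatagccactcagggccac
DHX15 (chromosome 4, minus strand): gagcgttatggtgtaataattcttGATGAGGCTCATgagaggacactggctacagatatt
DHX35 (chromosome 20, plus strand): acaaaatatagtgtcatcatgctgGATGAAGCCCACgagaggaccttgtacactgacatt
DHX37 (chromosome 12, minus strand): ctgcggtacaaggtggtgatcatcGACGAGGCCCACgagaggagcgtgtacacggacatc
DDX21 (chromosome 10, plus strand): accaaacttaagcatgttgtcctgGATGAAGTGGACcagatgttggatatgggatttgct
DDX39B (chromosome 6, minus strand): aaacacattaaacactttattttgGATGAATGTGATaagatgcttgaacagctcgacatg
DHX58 (chromosome 17, minus strand): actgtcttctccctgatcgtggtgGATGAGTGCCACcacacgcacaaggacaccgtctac

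The family was broadly expressed, with summed levels of 1424 FPKM (control) and 1509 (si-v). Helicases held 0.661% and 0.708% of the fragments. Single genes ranged from 0.992 to 95.1 FPKM in the control and from 0.809 to 98.2 in si-v. The median helicase stood at 19.4 and 20.5 FPKM, against 9.44 and 9.29 for all genes past the filter. In both libraries 33 helicases reached 10 FPKM and 10 reached 50 FPKM. The highest mean level was that of DDX5, a splicing and transcription cofactor, at 91.7 FPKM in the control and 98.2 in si-v. It was followed by DDX21, a nucleolar helicase of ribosomal RNA synthesis, at 94.3 and 89.5, and DHX15, which takes spliceosomes apart, at 95.1 and 81.6. DDX46, which acts when the branch site is recognised, stood at 71.6 and 77.8, and DDX10, a ribosome assembly helicase, at 65.2 and 69.3. These 5 genes differed little between the libraries, with log2 ratios between -0.22 and 0.12.

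**Figure D1:**
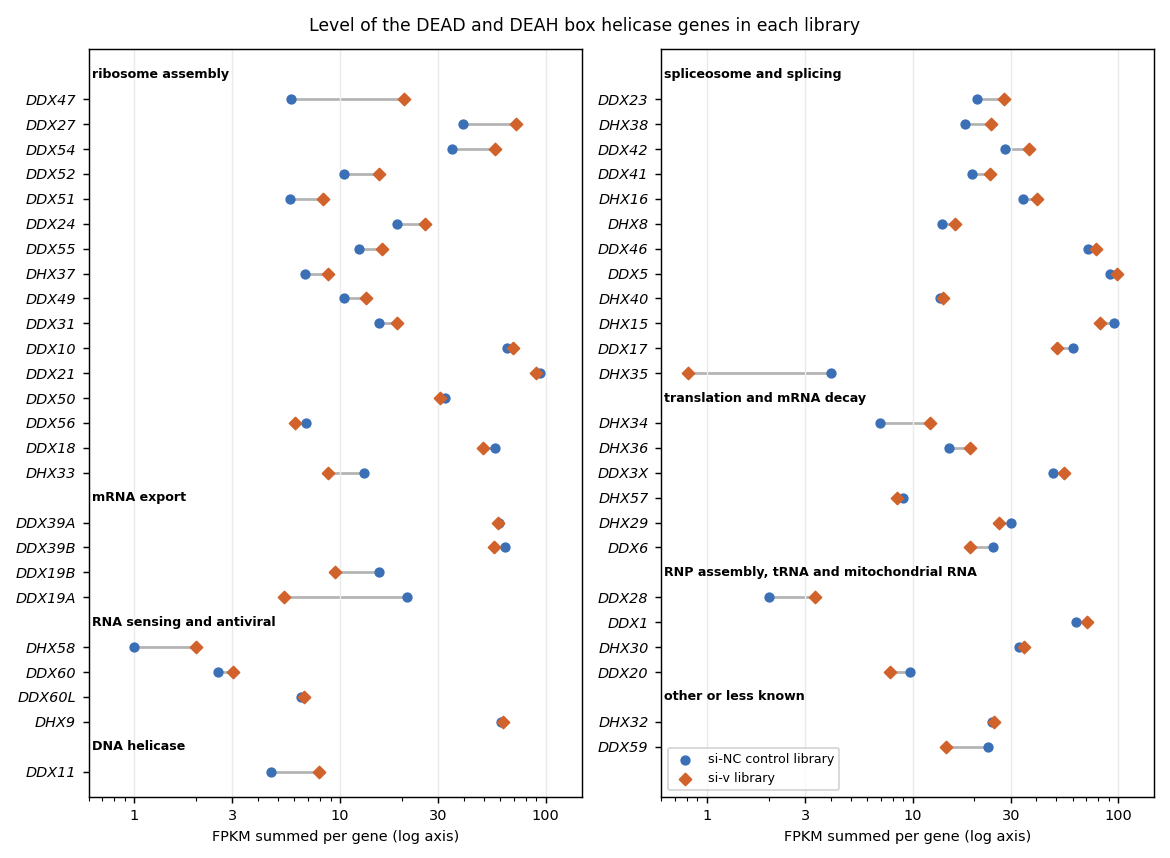
Level of each of the 49 helicases in the control and the si-v library, in FPKM summed over the listed transcripts of the gene, on a log axis; circles are the control and diamonds the si-v library, grouped by role. Most pairs of points lie close together, and the widest gaps are those of DDX47, DDX19A and DHX35.

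Differences are given as log2 of si-v over control after 1 FPKM was added to each, which understates the difference of low genes. On this scale the helicases had a median of 0.12, with the middle 50% of genes between -0.16 and 0.38. The median of all genes past the filter was 0.00, with the middle 50% between -0.27 and 0.30. Of the 49 helicases 32 (65.3%) were higher in si-v by any amount, against 50.4% of all genes. At 1.5-fold, 6 helicases (12.2%) were higher, where 9.82% of all genes were: DDX47, DDX27, DHX34, DDX54, DDX11 and DHX58. Another 4 (8.16%) were lower, where 8.91% of all genes were: DDX19A, DHX35, DDX19B and DDX59. At 2-fold, 1 helicase (2.04%) was higher, DDX47, against 2.37% of all genes. DDX19A and DHX35 (4.08%) were lower by 2-fold, against 2.49% of all genes. The median size of a difference in either direction was 0.28 for both the helicases and all genes. Levels in the control and in si-v had a Pearson correlation of 0.92 on the log2 scale across the 49 helicases, against 0.96 across all genes, as a description of values from the same 2 libraries.

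Counting error was described with fragments, approximated from FPKM, transcript length and the worth of 1 fragment in each library. No pseudocount was added to the fragment ratios, so for low genes they are not on the scale of the FPKM ratios. Helicases rested on 28 to 4880 fragments in the control (median 689) and on 32 to 5022 in si-v (median 711). The exact Clopper-Pearson interval at 95% of the fragment ratio left out 0 for 35 of the 49 helicases, 24 above and 11 below, where 60.3% of all genes did so. These intervals cover counting error only, and leave out the sharing of reads among transcripts and any variation between cultures. They are narrower for abundant genes, and the median level in the control was 19.4 FPKM for helicases against 9.44 for all genes. The split above and below 0 was not counted over all genes.

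**Figure D2:**
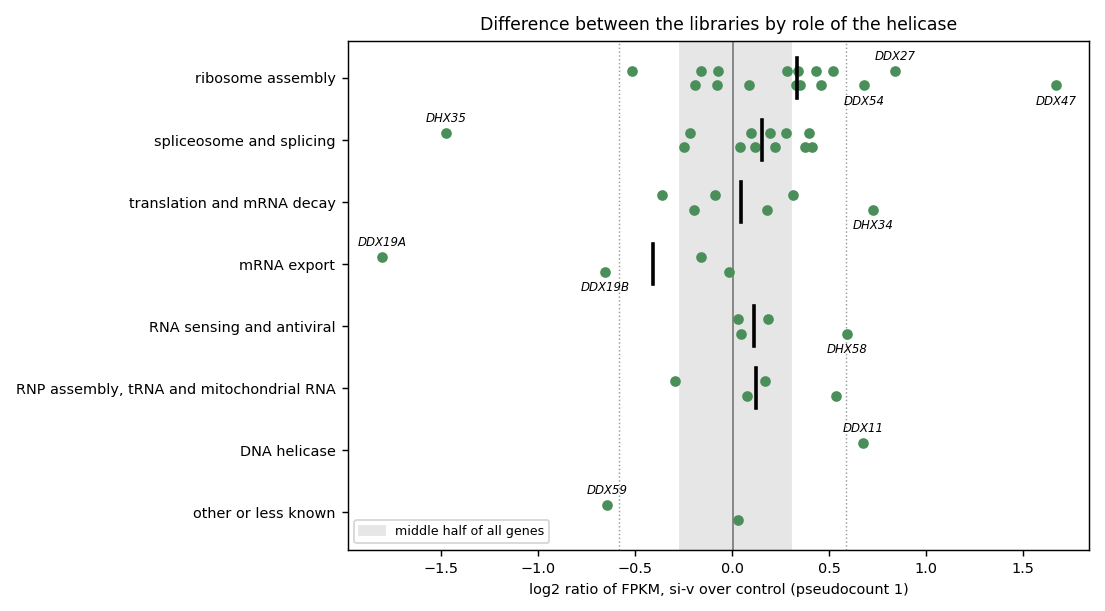
Log2 ratio of FPKM (si-v over control, pseudocount 1) of the 49 helicases by role; each point is a gene, black bars are medians of the role, the grey band holds the middle 50% of all genes and dotted lines mark 1.5-fold. The 16 ribosome assembly helicases have a median of 0.33, and DDX19A, DHX35 and DDX47 lie farthest from 0.

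Helicases of ribosome assembly act on precursor ribosomal RNA in the nucleolus and form the largest role group. Of 16 genes 11 were higher in si-v and 5 lower, with a median log2 ratio of 0.33, beside 50.4% higher and a median of 0.00 over all genes. At 1.5-fold 3 were higher and 0 lower, beside 9.82% and 8.91% of all genes. These shares of all genes are also those to set beside the counts of the other roles and lists, for which no test was run. DDX47, needed for early cleavages of the precursor, stood at 5.78 FPKM (control) and 20.5 (si-v), a log2 ratio of 1.67. It rested on 102 and 436 fragments, with a log2 fragment ratio of 2.0 (interval 1.70 to 2.33). DDX27, which works with the PeBoW complex on the large subunit, stood at 39.8 and 72.0 FPKM (0.84), and its fragment interval ran from 0.74 to 0.95. DDX54, also linked to the large subunit, stood at 35.2 and 57.0 FPKM (0.68).

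The next genes of this role were DDX52, a small subunit helicase, at 10.5 FPKM in the control and 15.5 in si-v (0.52), and DDX51, which acts on the large subunit, at 5.74 and 8.26 (0.46). On the other side DHX33, reported to act in ribosomal DNA transcription, stood at 13.0 and 8.79 FPKM (-0.52), with an interval of -0.72 to -0.38. DDX18, a large subunit helicase, stood at 56.8 and 49.6 (-0.19). DDX24, DDX55, DHX37, DDX49 and DDX31 lay between 0.28 and 0.43, and DDX56 at -0.16. The abundant DDX21 and DDX10 and the DDX21 paralog DDX50 stayed within 0.1 of 0.

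The 12 helicases of the spliceosome and of splicing, which drive the rearrangements of small nuclear RNAs, had a median of 0.16. Here 9 were higher in si-v and 3 lower, and only DHX35 passed 1.5-fold. DHX35, found in the catalytic spliceosome, was at 4.03 FPKM in the control and 0.809 in si-v (-1.47), the lowest helicase of the si-v library. It rested on 146 and 32 fragments, with a log2 fragment ratio of -2.29 (interval -2.88 to -1.72). DDX23, which helps to activate the spliceosome, stood at 20.7 and 27.8 FPKM (0.41). DHX38, the helicase of the second catalytic step, stood at 18.1 and 24.1 (0.39). DDX17, a close relative of DDX5, stood at 60.2 and 50.6 (-0.25), and DHX15 at 95.1 and 81.6 (-0.22). DDX42, DDX41, DHX16, DHX8 and DHX40 lay between 0.04 and 0.38. Apart from DHX35 the splicing helicases thus lay between -0.25 and 0.41.

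Among 6 helicases of translation and mRNA decay, 3 were higher and 3 lower, with a median of 0.05, which ran from -0.04 in fragments to 0.28 with the most abundant transcript. DHX34, a factor of nonsense-mediated decay, was at 6.94 FPKM in the control and 12.2 in si-v (0.73), from 333 and 632 fragments (interval of the fragment ratio 0.64 to 1.03). DHX36, which unwinds G-quadruplexes, stood at 15.1 and 19.0 FPKM (0.31), but its fragment interval ran from -0.12 to 0.20. DDX6, which joins translational repression to decapping, stood at 24.7 and 19.0 FPKM (-0.36). DHX29, which helps the small ribosomal subunit scan structured leaders, stood at 30.2 and 26.3 (-0.20). DHX57 lay at -0.09 and DDX3X, described with its transcripts below, at 0.18.

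All 4 helicases of mRNA export were lower in si-v, with a median of -0.41. This median was -0.44 in fragments and rose above 0 only when the most abundant transcript stood for each gene. DDX19A and DDX19B are neighbouring paralogs that release export factors from mRNA at the cytoplasmic side of the nuclear pore. DDX19A was at 21.3 FPKM in the control and 5.36 in si-v (-1.81), from 440 and 191 fragments (-1.29, interval -1.54 to -1.04). DDX19B stood at 15.5 and 9.48 FPKM (-0.65), from 375 and 359 fragments (-0.15, interval -0.36 to 0.06). DDX39A and DDX39B are paralogs that load export factors on mRNA with the TREX complex. DDX39A stood at 59.6 and 58.9 FPKM (-0.02), and DDX39B at 63.2 and 56.4 (-0.16). With only the most abundant transcript of each gene, by mean FPKM over both libraries, the median of these 4 genes was 0.35. That of the TREX and export cofactors was then 0.33. The transcripts so taken include DDX19A-202, DDX19B-201 and the fragmentary DDX39B-203.

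The cofactors of these export helicases include the factors that load and stimulate them. Of 15 analysed genes of TREX and export, 12 were higher in si-v and 3 lower, with a median of 0.21, and 4 were higher and 0 lower at 1.5-fold. GLE1, which stimulates the ATPase of the DDX19 proteins at the pore, was at 19.6 FPKM in the control and 42.3 in si-v (1.07). THOC5, a TREX subunit, stood at 8.21 and 16.9 (0.96). NUP214, the nucleoporin that DDX19 proteins dock on, stood at 26.9 and 19.1 (-0.47), and ZC3H11A, a TREX-associated protein, at 6.86 and 4.59 (-0.49).

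The 4 helicases of RNA sensing and antiviral defence were all higher in si-v by some amount, with a median of 0.11. The median was 0.33 with the trend of GC content and length removed and 0.04 with a filter of 5 FPKM, which leaves DDX60L and DHX9. DHX58, a regulator of the RIG-I-like receptors, was at 0.992 FPKM in the control and 2.0 in si-v (0.59). It rested on 28 and 62 fragments, with an interval of 0.39 to 1.76. The interferon-induced DDX60 stood at 2.55 and 3.03 FPKM (0.18), its paralog DDX60L at 6.48 and 6.72 (0.04) and DHX9, a nuclear helicase that also opens viral and Alu duplexes, at 60.8 and 62.0 (0.03). The fragment intervals of these 3 genes included 0. With the most abundant transcript only DDX60L stood at -0.45, and with the mitochondrial genome left out of the scaling DDX60L and DHX9 stood at -0.01 and -0.04.

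In the group of ribonucleoprotein assembly, transfer RNA and mitochondrial RNA, 3 of 4 genes were higher, with a median of 0.12. DDX28, of mitochondrial ribosome assembly, was at 2.0 FPKM in the control and 3.35 in si-v (0.54), from 48 and 86 fragments. DDX1, of the transfer RNA ligase complex, stood at 62.7 and 70.5 (0.17), and DHX30, a mitochondrial RNA granule protein, at 33.0 and 34.8 (0.07). DDX20, a component of the SMN complex, stood at 9.77 and 7.77 (-0.30). DDX11, a DNA helicase of sister chromatid cohesion, stood at 4.60 and 7.93 (0.67). A near-identical pseudogene of DDX11 exists, so its reads may have been split. Of the less known genes, DHX32 stood at 24.3 and 24.9 (0.03) and DDX59, linked to ciliary signalling, at 23.2 and 14.5 (-0.64).

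Other partners and relatives of the helicases were described in the same way. G-patch proteins, which switch on DEAH box helicases, had 13 of 22 genes higher and a median of 0.16. Among them GPATCH3 was at 4.72 FPKM in the control and 9.89 in si-v (0.93), SUGP1 at 9.08 and 15.4 (0.70), GPATCH11 at 31.5 and 22.1 (-0.49) and GPATCH8 at 31.6 and 8.38 (-1.79). SUGP1 is a splicing factor that works with DHX15. Cofactors of eIF4A and DDX6, which steer translation and decay, had 10 of 19 genes higher and a median of 0.01. Their ends were CNOT1, the scaffold of the deadenylase complex, at 13.8 and 28.8 (1.01), EDC3 at 3.74 and 5.74 (0.51), DCP1B at 1.91 and 1.32 (-0.33) and ATXN2 at 24.8 and 16.4 (-0.57). DCP1B rested on about 44 and 33 fragments, and its fragment interval of -1.20 to 0.18 included 0. For CNOT1 the fragment interval, at 1.445 to 1.699, lay above its FPKM ratio.

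Related helicases under other symbols had 7 of 11 genes higher and a median of 0.17. MTREX, the helicase of the nuclear exosome, was at 7.50 FPKM in the control and 12.6 in si-v (0.67). The translation initiation paralogs differed in sign, with EIF4A1 at 48.9 and 71.3 (0.53) and EIF4A2 at 18.3 and 11.7 (-0.60). AQR, an intron-binding helicase of the spliceosome, stood at 8.54 and 5.37 (-0.58).

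The table lists 155 transcripts of the helicases, 107 of them with a complete coding model, out of 228 annotated coding transcripts. A single transcript was listed for 8 genes. Of the other 41 genes, 8 had a different most abundant transcript in each library, 19.5%, against 26.4% of all such genes. They were DDX11, DDX19A, DDX19B, DDX24, DDX39B, DDX46, DHX35 and DHX37. Of 64 helicase transcripts at 5 FPKM or more in a library, 5 were listed at 0 in the other, where 2.8% of all such transcripts were. Of these 5, 4 were listed at 0 in si-v (DDX19A-202, DDX19B-202, DDX39B-207 and DDX3X-203) and 1 in the control (DDX39B-206). Over all genes the split was 146 at 0 in si-v and 156 in the control.

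The DDX19 pair had the same pattern in both genes. DDX19A-202 was at 17.9 FPKM in the control and was listed at 0 in si-v, while DDX19A-201 stood at 3.04 and 5.36. DDX19B-202 stood at 10.2 FPKM and was listed at 0 in si-v, while DDX19B-201 stood at 4.68 and 8.36. Each 202 transcript lacks a coding exon of 93 bases, which keeps the reading frame, and is also shorter beyond the coding part. The exons of the 2 genes are homologous, with 85 of 93 bases identical (91.4%). They are shown because the transcripts listed at 0 are those without them: the exon is in capitals, with 24 coding bases on either side in lower case, on the plus strand of chromosome 16.
DDX19A-201, bases 457 to 549 of the transcript in capitals: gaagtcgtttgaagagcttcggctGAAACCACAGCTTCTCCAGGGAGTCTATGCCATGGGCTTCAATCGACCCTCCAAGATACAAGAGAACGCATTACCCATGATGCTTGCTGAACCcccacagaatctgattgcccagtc
DDX19B-201, bases 542 to 634 of the transcript in capitals: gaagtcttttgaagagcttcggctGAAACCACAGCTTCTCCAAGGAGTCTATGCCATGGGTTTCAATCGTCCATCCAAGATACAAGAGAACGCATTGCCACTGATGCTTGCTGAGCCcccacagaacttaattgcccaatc

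The DDX19 genes share 707 windows of 50 bases among their listed transcripts, 23.2% of those of DDX19A and 19.3% of those of DDX19B, so reads could be split between them and both values are uncertain. Summed over both genes, the pair was at 36.8 FPKM in the control and 14.9 in si-v (-1.25). In fragments, which weigh each transcript by its length, it stood at 816 and 550 (-0.65, interval -0.81 to -0.50). The pair was thus lower in si-v on both scales, by less in fragments. The only other helicase pairs with a shared window were DDX60 with DDX60L (42 windows) and DDX51 with DDX59 (8 windows).

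**Figure D3:**
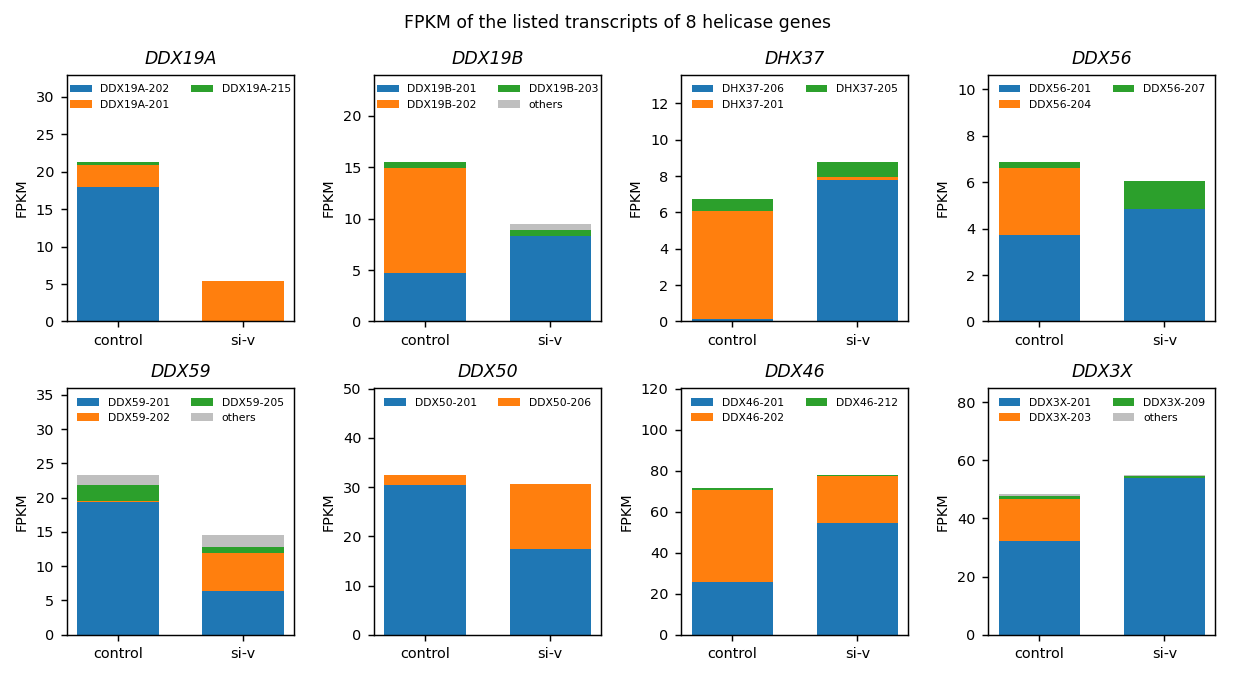
Stacked bars of FPKM in the control and the si-v library for 8 helicases, with a colour for each of the 3 most abundant listed transcripts and grey for the others; DDX46 and DDX3X were added after their values were seen. DDX19A-202 and DDX19B-202 are listed at 0 in si-v, and DHX37-201 and DHX37-206 change places.

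The rule for transcript shares also named DHX37, DDX56, DDX59 and DDX50. DHX37, a DEAH box helicase that frees the small subunit precursor from a small nucleolar RNA, had the largest shift. DHX37-201 was at 5.91 FPKM in the control and 0.194 in si-v, and DHX37-206 at 0.162 and 7.76. The exons of DHX37-206 lack the first 529 coding bases of DHX37-201, and its coding part ends in 137 bases of its own. The coding parts, of 3471 bases in DHX37-201 and 2886 in DHX37-206, also differ where exons are shared, which was not analysed. Both transcripts hold the motif II codons shown above. The gene sum was close, at 6.73 and 8.76 FPKM (0.34). DDX50, a paralog of DDX21, had a gene sum of 32.4 and 30.6 (-0.08), with DDX50-201 at 30.5 and 17.5 and DDX50-206 at 1.85 and 13.0. The coding parts of these DDX50 models differ only in scattered runs of 1 to 5 bases, so reads could be split between them. How reads were assigned to each model was not tested.

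DDX56, a nucleolar helicase, had a gene sum of 6.86 FPKM in the control and 6.03 in si-v (-0.16). DDX56-204, which lacks 120 coding bases of DDX56-201, stood at 2.87 and was listed at 0 in si-v, while DDX56-201 stood at 3.73 and 4.82. DDX59-201, with a complete coding model, stood at 19.4 and 6.43. DDX59-202, a fragmentary model of 945 bases, stood at 0.148 and 5.52.

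Other stretches were chosen for display after the values were seen. DDX3X, a translation helicase of structured mRNA leaders, had a gene sum of 48.3 FPKM in the control and 54.8 in si-v (0.18). DDX3X-203, which lacks 45 coding bases near the start, stood at 14.4 and was listed at 0 in si-v, while DDX3X-201 stood at 32.3 and 53.8. DDX47-201, which lacks 147 coding bases of DDX47-202, stood at 0.0915 and 5.61, beside DDX47-202 at 4.73 and 14.9. The remaining model, the fragmentary DDX47-210, stood at 0.949 and was listed at 0 in si-v. DDX47 was thus higher in both complete models and lower in the fragmentary one. DDX47-210 in both libraries and DDX47-201 in the control lay below 1 FPKM, so these values rest on few fragments. DHX35-203, which lacks 72 coding bases of DHX35-201, stood at 1.63 and 0.558, beside DHX35-201 at 2.40 and 0.251. Both DHX35 transcripts were lower in si-v. The stretches that tell the models apart are in capitals, with 24 flanking coding bases in lower case, and each keeps the reading frame.
DDX3X-201 (X, plus strand), bases 195 to 239 of the transcript: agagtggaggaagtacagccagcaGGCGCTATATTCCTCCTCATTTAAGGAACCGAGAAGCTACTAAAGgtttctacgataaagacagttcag
DDX56-201 (chromosome 7, minus strand), bases 998 to 1117: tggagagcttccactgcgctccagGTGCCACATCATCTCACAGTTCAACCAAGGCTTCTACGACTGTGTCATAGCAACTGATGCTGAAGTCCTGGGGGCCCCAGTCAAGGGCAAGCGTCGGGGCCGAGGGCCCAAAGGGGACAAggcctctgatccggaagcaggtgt
DDX47-202 (chromosome 12, plus strand), bases 773 to 919: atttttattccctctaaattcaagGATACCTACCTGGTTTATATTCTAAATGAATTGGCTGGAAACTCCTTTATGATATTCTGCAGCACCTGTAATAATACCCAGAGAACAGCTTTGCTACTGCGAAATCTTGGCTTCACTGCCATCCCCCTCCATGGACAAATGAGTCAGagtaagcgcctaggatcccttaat
DHX35-201 (chromosome 20, plus strand), bases 1917 to 1988: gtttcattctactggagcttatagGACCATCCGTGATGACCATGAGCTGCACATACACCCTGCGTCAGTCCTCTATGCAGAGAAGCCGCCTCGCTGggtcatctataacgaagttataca

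In the 43 genes with a placed motif II, the share of a gene's FPKM from transcripts that hold these codons was mostly high. It reached 90% or more in both libraries in 34 genes. The largest difference was in DDX59, from 83.6% in the control to 51.4% in si-v, which left 19.4 and 7.46 FPKM of motif-holding transcripts (-1.27). In DDX56 the share went from 96.2% to 80.0%, where the model without the codons, of 691 bases, stood at 0.261 and 1.205 FPKM. In DDX39B the share went from 74.2% to 58.9%, or 46.9 and 33.2 FPKM (-0.48). In DDX59, DDX56 and DDX39B every listed transcript without the codons has an incomplete coding model. Whether the RNAs themselves lack motif II was therefore not tested. In DDX39B the lead passed from DDX39B-214, a complete model at 24.1 FPKM in the control and 0.777 in si-v, to the fragmentary DDX39B-203, at 9.48 and 18.8. Fragments of the whole DDX39B gene numbered 907 and 573, a log2 ratio of -0.75 (interval -0.90 to -0.60), against -0.16 in FPKM. DDX46 shifted between models whose coding parts differ by 3 bases. DDX46-201 stood at 25.6 and 54.4 FPKM and the longer DDX46-202 at 45.2 and 22.9, and the gene's ratio was 0.12 in FPKM and -0.04 in fragments.

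**Figure D4:**
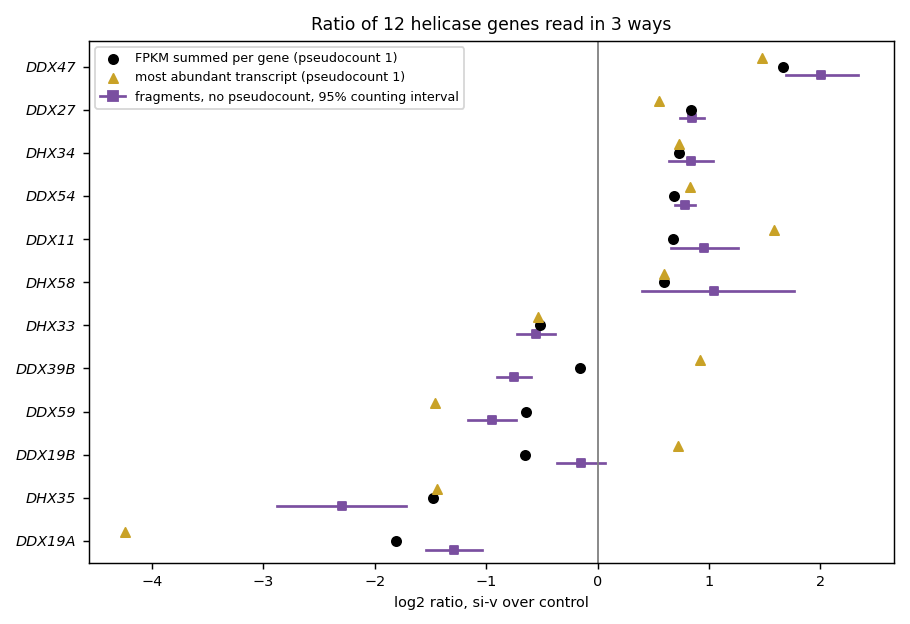
Log2 ratio (si-v over control) of 12 helicases read in 3 ways: FPKM summed over listed transcripts (circles), the most abundant listed transcript only, by mean FPKM over both libraries (triangles), and fragments per gene (squares, with 95% counting intervals as bars). DDX47 stays above 0 and DDX19A and DHX35 below 0 in all 3, whereas DDX19B and DDX39B lie above 0 only for the most abundant transcript.

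The helicases lie on 18 chromosomes, with 7 genes each on chromosomes 12 and 17. On chromosome 12 all 7 were higher in si-v, with a median of 0.46: DDX47, DDX54, DDX11, DDX51, DDX23, DDX55 and DHX37. Of all 568 genes past the filter on that chromosome 51.6% were higher, with a median of 0.01. The most abundant transcripts of these 7 helicases had a median GC content of 57.8%, against 47.8% for all genes of the chromosome. On chromosome 17, 6 of 7 helicases were higher, with a median of 0.19, beside 60.6% of 668 genes. Chromosome 12 was singled out after its values were seen.

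GC content moved with the ratio in helicases and in all genes alike. The Pearson correlation between GC content of the most abundant transcript and the log2 ratio was 0.25 over the 49 helicases and 0.29 over all genes, which share the 2 libraries. Of the 25 helicases at or above the median GC content 19 were higher in si-v, with a median of 0.34. Of the 24 below it 13 were higher, with a median of 0.03. With the linear trend of GC content and length over all genes taken out, 3 helicases were 1.5-fold higher in place of 6. They were DDX47, DDX27 and DDX52, of which DDX52 (0.71) was not among the 6. The share of all genes went from 9.82% to 7.7%. Under the same setting the helicase median went up, from 0.12 to 0.18, and that of all genes was 0.01. The part of GC content in any single result was not tested.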

How the data were processed

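RNA-seq was available for 2 libraries, 1 control (si-NC) and 1 Smart Silencer. cutadapt, HISAT2 2.0.5 and StringTie on hg19 are named per the submitters' processing notes, with no role or order; an annotation release, strand setting or filter was not given in the sources used here, and overlapping genes cannot be told apart. The table deposited by the authors holds 1 value per transcript and library, taken here as FPKM from the values and the tool named, since its header names no unit. Of 39605 transcripts 99.5% matched GENCODE release 29, a later build used only for symbols, sequences, lengths, GC content and chromosomes; 179 did not match. Sequences are credited to GENCODE 29.

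FPKM was summed per gene, and genes at 1 FPKM or more in at least 1 library were kept. Fragments were FPKM times length over the worth of 1 fragment, 91.1 in the control and 84.1 in si-v, read from a peak among low values; they are approximate. The pseudocount was 1. Named genes were the 6 highest and 6 lowest ratios, the 5 highest levels, the 2 highest and 2 lowest of each role and partner list, and the 6 largest shifts in transcript share among helicases at 5 FPKM in both libraries; other names were chosen after values were seen. The members and lists were chosen with earlier results of these data known. Alternatives were pseudocounts of 0.1 and 5, other filters and scalings, the most abundant transcript, fragments per gene, removal of the GC and length trend, and a 1.5-fold margin for the leading transcript. As an alternative, and for GC content and length, the most abundant transcript was that of highest mean FPKM over both libraries. For the leading transcript it was taken in each library. The ratio, the fold thresholds and the counting interval were tested on simulated counts with known ratios and totals. The simulation did not cover the worth of 1 fragment, the sharing of reads, the leading transcript or the search for motif II. The software was Python 3.11.15, numpy 2.4.6, pandas 2.3.3, scipy 1.17.1 and biopython 1.88. One marker of the cell line is not reported here.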

Additional observations from a re-analysis of the deposited data

How the results depend on the processing

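The median log2 ratio of the helicases stayed between 0.05 and 0.21 under all 9 alternatives, and DDX47, DDX19A and DHX35 kept their direction in each that could be computed. With a pseudocount of 5, 1 helicase was 2-fold lower, 3 were 1.5-fold higher and 2 were 1.5-fold lower, beside 0.607%, 4.1% and 3.54% of all genes. With a filter of 5 FPKM, which leaves 45 helicases and drops DHX35, 1 was 2-fold lower, beside 2.48% of all genes. With the most abundant transcript only, 4 were 2-fold higher and 12 were 1.5-fold higher, where the shares of all genes also grew, to 6.18% and 14%; the median of the export helicases was 0.35 and DDX19B stood at 0.72. With the trend of GC content and length removed, 3 were 1.5-fold higher, beside 7.7% of all genes. With a 1.5-fold margin for the leading transcript, 4 of 28 helicases differed (14.3%, against 15.6% of all genes). The causes of these shifts were not tested, apart from the filter, which tests fewer genes. Some single helicases changed sign: 5 with the most abundant transcript and 4 with the mitochondrial genome left out of the scaling. Without the GC and length trend 4 did so, and with fragments per gene 1 did. That alternative is FPKM times length, rescaled and with a pseudocount of 1, and it also gives the medians in fragments. On the fragment ratios without a pseudocount, DDX46 (-0.04) and DDX39A (0.002) had the other sign. Scaling without the mitochondrial genome also turned the all-gene split at 1.5-fold from 1085 higher and 984 lower to 873 and 1187. Small medians moved too. That of translation and decay (0.05) was -0.02 under that scaling and -0.04 in fragments, but 0.28 with the most abundant transcript and 0.19 without the GC and length trend. That of RNA sensing (0.11) ran from 0.04 with the 5 FPKM filter to 0.33 without that trend, and that of the eIF4A and DDX6 cofactors was -0.05 without the mitochondrial genome in the scaling, -0.06 in fragments and, with the most abundant transcript, -0.02. The all-gene count at 2-fold went with the pseudocount, from 486 higher and 473 lower at 0.1 to 72 and 67 at 5. Depth limits the low genes most, DHX58 with 28 and 62 fragments and DHX35 with 146 and 32. No paired analysis was possible because each group has 1 library.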
